A study of Mus musculus with 6 samples.

Results

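The genes described here encode the C/EBP transcription factors, C/EBP alpha, beta, delta, epsilon and gamma (Cebpa, Cebpb, Cebpd, Cebpe and Cebpg), together with Cebpz. The members were chosen by symbol in the deposited gene table, and 6 of 6 were found among 27507 gene identifiers. All 6 passed the filter on low values, which required a normalized count of at least 10 in at least 3 of the 6 libraries and kept 12408 genes. The RNA came from L929 cells, an established line of mouse fibroblasts. There were 3 control libraries (genotype label WT) and 3 STING KO libraries. STING, encoded by Sting1, is the adaptor that relays cytosolic DNA sensing by cGAS to interferon and NF-kB signalling. No treatment, time point or stimulus is named for either group. How the knockout was made, and whether it is 1 clone, is not given in the sources used here. Polyadenylated RNA was sequenced. The values in each library are whole multiples of 1 step, as read counts divided by a size factor would be, and are called normalized counts below.

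C/EBP alpha, beta, delta, epsilon and gamma are basic leucine zipper (bZIP) proteins, which pair through the zipper and grip DNA with the basic region in front of it. Cebpd and Cebpb are known as inducible members in inflammation: IL-6-type cytokines acting through STAT3 raise Cebpd transcription, and C/EBP beta was first described as a nuclear factor for IL-6 expression. Both proteins are known to act with NF-kB at cytokine and acute-phase genes. C/EBP alpha is best known from liver, fat and myeloid cells, C/EBP epsilon from granulocytes, and C/EBP gamma as a partner that lacks a classical activation domain. Cebpz carries the name but belongs to the Noc1 family of ribosome assembly factors and has no bZIP domain.

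The coding bases of the basic region are printed below because they show how alike the members are in the part that touches DNA. Each stretch spans 20 codons and 60 bases, 5′ to 3′ on the coding strand, from GENCODE transcripts on GRCm38. Capitals mark bases that differ from Cebpd.
Cebpd: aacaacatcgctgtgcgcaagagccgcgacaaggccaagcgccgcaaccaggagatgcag
Cebpb: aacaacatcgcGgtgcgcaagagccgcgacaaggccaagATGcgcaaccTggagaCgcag
Cebpe: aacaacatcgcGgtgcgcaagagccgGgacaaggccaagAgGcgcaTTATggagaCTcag
Cebpa: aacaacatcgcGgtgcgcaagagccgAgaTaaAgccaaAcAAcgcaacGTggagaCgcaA
Cebpg: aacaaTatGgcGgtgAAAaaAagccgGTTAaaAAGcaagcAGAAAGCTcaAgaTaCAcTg
The Cebpd stretch lies at chr16:15887925-15887984 on the plus strand, in the gene's coding exon. The Cebpb stretch lies at chr2:167689715-167689774 on the plus strand and shares 54 of 60 bases with it. Cebpe, at chr14:54710686-54710745 on the minus strand, shares 50 bases, and Cebpa, at chr7:35120295-35120354 on the plus strand, shares 49. Cebpb, Cebpe and Cebpa each encode 17 of the 20 residues of C/EBP delta. Cebpg, at chr7:35050564-35050623 on the minus strand, shares 33 bases and 10 residues. The longest run of identical bases between any 2 members' longest transcripts was 11 to 29 bases over the 15 pairs. It was 27 bases between Cebpd and Cebpb.

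Library totals were close, from 14382072 to 14526606 normalized counts. Sting1 stood at 311 to 329 normalized counts in the control libraries and at 80.6 to 93.4 in STING KO, and limma gave a log2 difference of -1.90 ± 0.09 (SE) with an adjusted p of 9.72e-06. The fibroblast markers were abundant, with Col1a1 at 10264 to 12691 and Col1a2 at 26399 to 29285. Their summed level over 10 genes was 184004 to 196023 in control and 197462 to 211552 in STING KO, and 0 of the 9 tested were called. Control 3 and STING KO 1 stood apart by transcripts of hepatocyte genes. The 18 hepatocyte markers summed to 6697 and 6047 in these libraries and to 376 to 876 in the other 4. Albumin (Alb) was at 2780 and 2552 there against 101 to 268, and Apoa1 at 453 and 429 against 32.9 to 104. The 10 macrophage and leukocyte markers summed to 779.7 to 915 in control and 823 to 974 in STING KO, the 4 epithelial markers to 439 to 509 and 496 to 604, and the 4 endothelial markers to 22.8 or less. The 6 adipocyte markers summed to 6100.1 to 6772 in control and 6903 to 7869.8 in STING KO without overlap, nearly all of it Fabp4. One of the libraries with hepatocyte transcripts is a control and the other is STING KO. Where a gene named here lost its call without both, this is given with the gene.

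Cebpd was lower in STING KO. Its normalized counts were 869.6, 809 and 803 in the control libraries and 434, 481 and 442 in the STING KO libraries. The groups did not overlap, and the lowest control library was well above the highest STING KO library. The mean was 827 ± 36.9 (SD, n = 3) in control and 452 ± 25.3 (SD, n = 3) in STING KO, which is 54.7% of control. The log2 fold change was -0.87 ± 0.07 (SE; 95% interval -1.02 to -0.72), with a limma adjusted p of 0.00043 over all 12408 genes. It had the 7th smallest p among them. The authors' deposited table gives -0.87 with an adjusted p of 2.15e-16. Cebpd was called in all 15 alternative analyses run, and its adjusted p was highest, at 0.0230, without control 3 and STING KO 1. In bulk RNA, fewer cells with Cebpd transcripts and less Cebpd RNA per cell cannot be told apart. The gene (ENSMUSG00000071637) lies on chromosome 16 from 15887286 to 15891031 on the plus strand.

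Cebpb was lower in every STING KO library, by a smaller margin that did not pass the test. Its normalized counts were 1664, 1747 and 1645 in control, compared with 1546, 1289 and 1415 in STING KO. The groups did not overlap, but the STING KO libraries spread more widely. The mean was 1685 ± 54.0 (SD, n = 3) in control and 1417 ± 128 (SD, n = 3) in STING KO, or 84.1% of control. The log2 difference was -0.25 ± 0.07 (SE; 95% interval -0.41 to -0.10), with a limma adjusted p of 0.531. The authors' deposited table gives -0.25 with an adjusted p of 0.507. Over the 15 alternatives its log2 difference ran from -0.34 to -0.19, and it was called in none of them. The gene (ENSMUSG00000056501) lies on chromosome 2 from 167688915 to 167690418 on the plus strand.

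**Figure D1:**
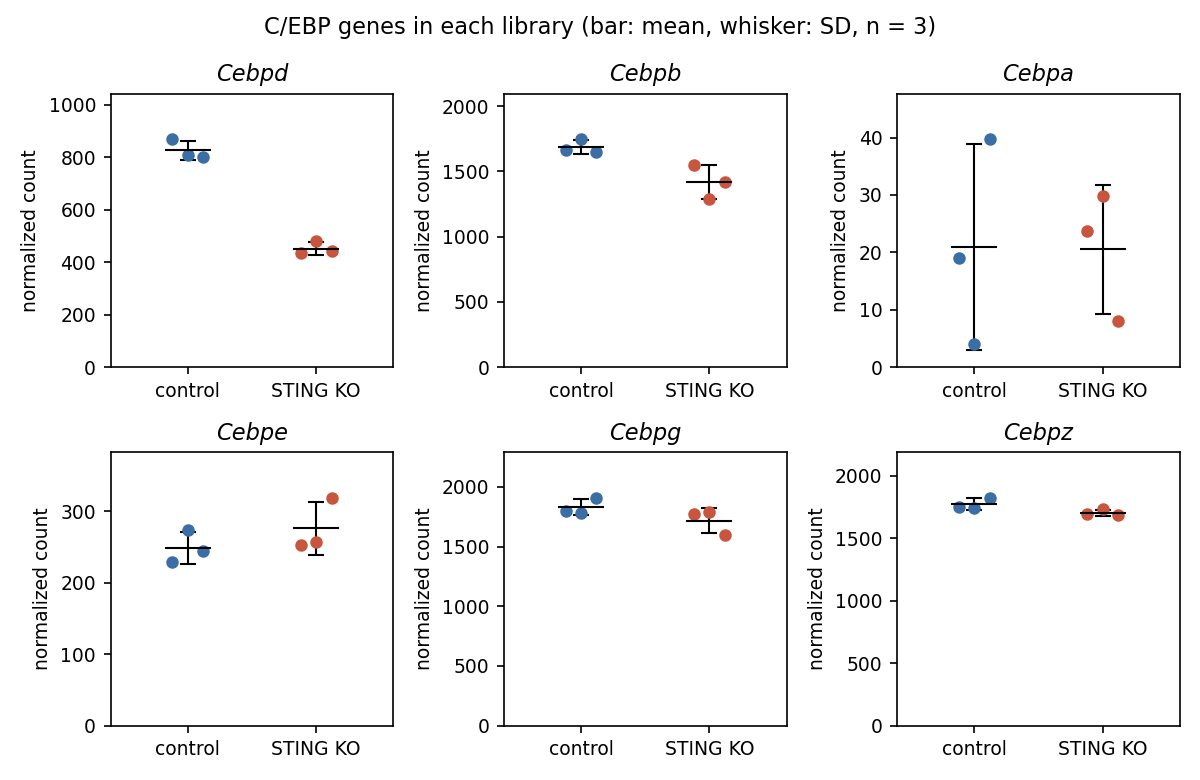
Normalized counts of the 6 genes in each library, with group means as bars; each panel has its own scale. Cebpd is at 803 to 869.6 in control and 434 to 481 in STING KO, Cebpb and Cebpz are separated by less, and Cebpe, Cebpg and Cebpa overlap.

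Cebpg and Cebpz were close to control. Cebpg stood at 1801, 1779.6 and 1909 in control, against 1771, 1786 and 1593 in STING KO. These groups overlapped, and the lowest value was STING KO 3. The means were 1830.03 ± 69.6 and 1716 ± 108 (SD, n = 3 each). The log2 difference was -0.09 (95% interval -0.23 to 0.04, limma adjusted p = 0.739). Cebpz stood at 1748, 1741 and 1825 in control, compared with 1696, 1732 and 1684 in STING KO. Its groups did not overlap, but the gap was small, and the means were 1771 ± 46.6 and 1704 ± 25.1 (SD, n = 3 each), or 96.2% of control. The log2 difference was -0.06 (95% interval -0.16 to 0.05, limma adjusted p = 0.756). Cebpg lies on chromosome 7 from 35046422 to 35056573 on the minus strand, and Cebpz, with 16 exons, on chromosome 17 from 78919006 to 78937066 on the minus strand.

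Cebpe was present in these fibroblasts at 229, 273 and 244 normalized counts in control, against 252, 257 and 319 in STING KO. The groups overlapped, with STING KO 3 the highest library. Control averaged 249 ± 22.7 and STING KO 276 ± 37.4 (SD, n = 3 each). The log2 difference was 0.15 (95% interval -0.10 to 0.39, limma adjusted p = 0.744). The listed granulocyte markers were low in the same libraries. The 8 granulocyte markers summed to 36.8 to 46.9 in control and 36.2 to 50.5 in STING KO, most of it Mpo, and Elane was at 3.99 or less in every library. Prtn3, a granulocyte gene outside these markers, was not low, at 124 to 163 in control and 124 to 178 in STING KO. It was named after its values were seen. Cebpe lies on chromosome 14 from 54710360 to 54712174 on the minus strand, and no other annotated gene overlaps it.

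Cebpa had the lowest values of the members and the widest scatter. It stood at 19.0, 3.99 and 39.7 in control, compared with 23.8, 29.9 and 8.03 in STING KO. The groups overlapped, and the highest library had 9.96 times the lowest. Control averaged 20.9 ± 18.0 and STING KO 20.6 ± 11.3 (SD, n = 3 each). The log2 difference was 0.30 ± 0.77 (SE; 95% interval -1.43 to 2.03, limma adjusted p = 0.911). This interval is wide on both sides of 0, so no difference was detectable with this scatter. The hepatocyte marker sums in the same order of libraries were 858, 376 and 6697 in control, against 6047, 876 and 412 in STING KO. The lowest and highest Cebpa libraries, control 2 and control 3, are also the lowest and highest for these sums, but STING KO 2 has more Cebpa than STING KO 1 with a far lower sum. Their part in the Cebpa values was not tested. Cebpa lies on chromosome 7 from 35119293 to 35121928 on the plus strand.

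Counted together, 1 of the 6 members was called lower at an adjusted p of 0.05, where limma called 0.258% of all tested genes lower (32 genes) and 0 higher. The number lower was 21 without control 1 and 13 without both control 3 and STING KO 1, and 2 genes were higher without control 2. At an unadjusted p of 0.05, 397 genes were higher and 394 lower. The authors' deposited table has 6 genes higher at its adjusted p, and limma-voom gave 0. By the authors' deposited test 1 of 6 was lower as well, where 0.251% of all genes were. All 3 STING KO libraries lay below all 3 control libraries for 3 members (Cebpd, Cebpb and Cebpz), against 6.32% of all tested genes. At an unadjusted p of 0.05, 2 members (Cebpd and Cebpb) were lower, against 3.18% of all genes.

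**Figure D2:**
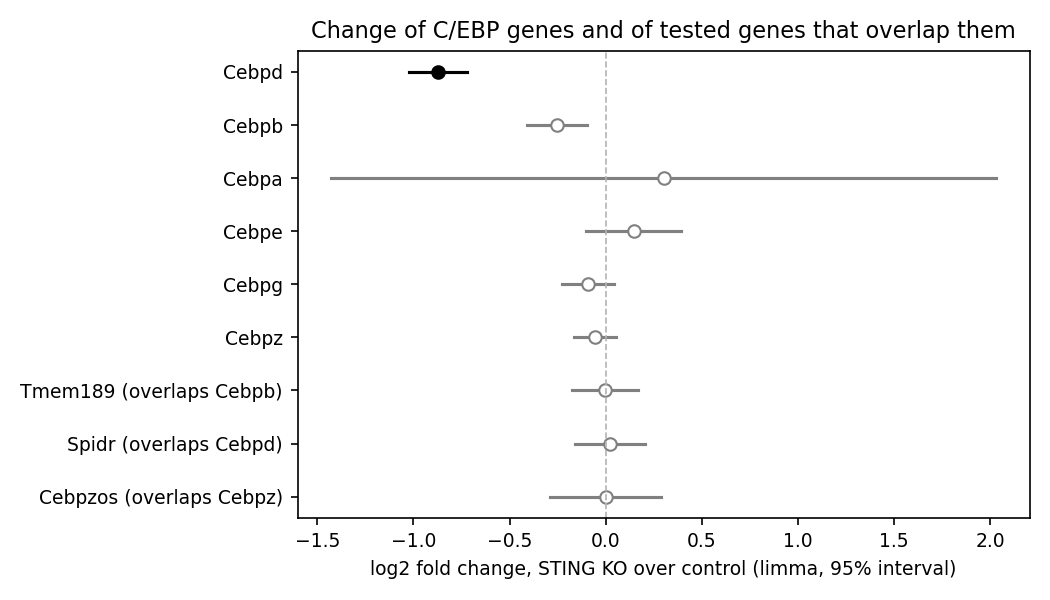
Log2 fold change, STING KO over control, of the 6 genes and of Spidr, Tmem189 and Cebpzos, which overlap some of them. Values are on the log2(normalized count + 0.1) scale, with 95% intervals from limma. Cebpd is at -0.87 with an interval of -1.02 to -0.72, and the Cebpa interval runs from -1.43 to 2.03.

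Scatter between libraries is given beside the counting error that would apply if each step were 1 read. The coefficient of variation of Cebpd was 4.47% in control and 5.59% in STING KO, beside 3.48% and 4.70% from counting. For Cebpb it was 3.20% and 9.06%, beside 2.44% and 2.66%. For Cebpg it was 3.80% and 6.26%, beside 2.34% and 2.41%, and for Cebpz 2.63% and 1.47%, beside 2.38% and 2.42%. Cebpe had 9.11% and 13.6%, beside 6.34% and 6.02%, and Cebpa 85.9% and 54.8%, beside 21.9% and 22.1%. These values rest on 3 libraries a group and were not tested against each other.

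Some of the members share bases with a gene on the opposite strand, and whether the reads were counted by strand is not given in the sources used here. Spidr, a DNA repair gene, shares 562 exon bases with Cebpd. It stood at a mean of 399 in control and 404 in STING KO, a log2 difference of 0.02 (95% interval -0.16 to 0.20). Tmem189 shares 312 exon bases with Cebpb, and its log2 difference was 0.00 (95% interval -0.17 to 0.17). Cebpzos shares 171 exon bases with Cebpz, and its 95% interval ran from -0.29 to 0.29. The Spidr interval lay above that of Cebpd, while those of Tmem189 and Cebpzos overlapped those of Cebpb and Cebpz.

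The distance between Cebpd and the rest of the family was measured within each library, as the log2 ratio of its normalized count to that of another member. Over Cebpb, the ratio was -0.94, -1.11 and -1.04 in control, against -1.83, -1.42 and -1.68 in STING KO. Every STING KO library was below every control library, and the mean ratios differed by -0.62 ± 0.13 (SE; 95% interval -0.98 to -0.26). The change was -0.78 (95% interval -0.9985 to -0.56) over Cebpg and -0.82 (95% interval -0.99 to -0.64) over Cebpz. Over Cebpe it was -1.02 (95% interval -1.48 to -0.56), again without overlap. Each of these gave an exact two-sided permutation p of 0.1, the smallest that 3 against 3 libraries allow, and 0.18 after Benjamini-Hochberg adjustment over the 9 pairs. Over Cebpa the ratio could not be told from no change, with an interval from -4.27 to 1.92. The Cebpb ratio to Cebpe differed by -0.40 (95% interval -0.81 to 0.01) without overlap. Its ratios to Cebpg, at -0.16 (95% interval -0.47 to 0.15), and to Cebpz, at -0.20 (95% interval -0.46 to 0.07), overlapped between groups.

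**Figure D3:**
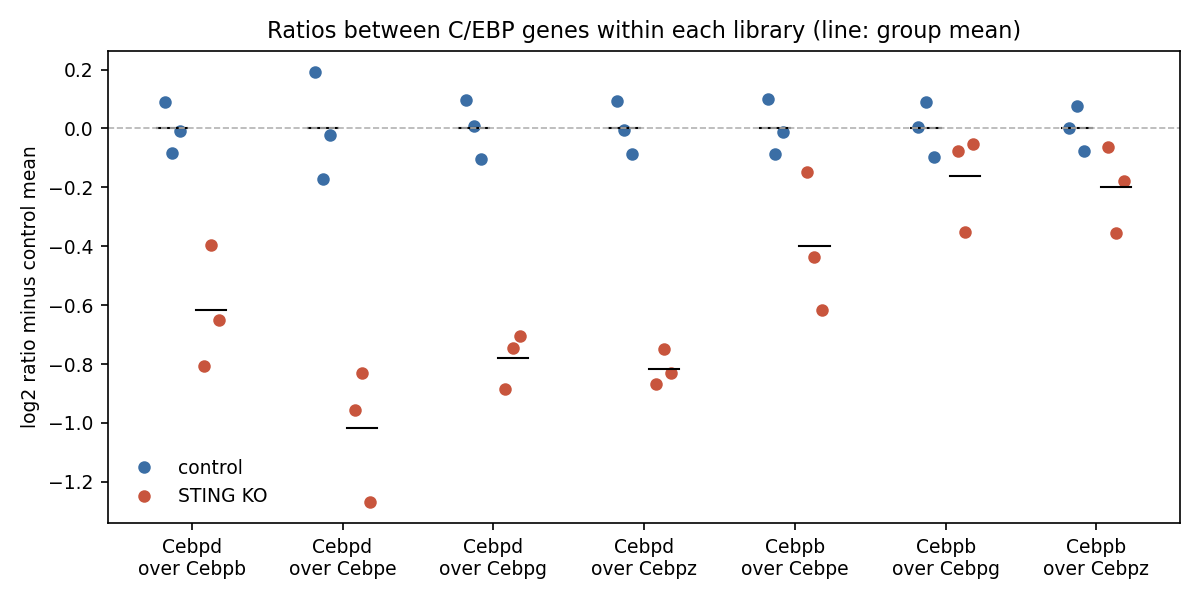
Log2 ratio of Cebpd (and of Cebpb) to another member within each library, relative to the control mean, with group means as bars. Ratios to Cebpa are not drawn. The Cebpd ratios to Cebpb, Cebpe, Cebpg and Cebpz in the STING KO libraries all lie below those of the controls.

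Levels of different genes can be set side by side only per length, so normalized counts were divided by the longest annotated transcript in kilobases. In control, Cebpb was highest, at 1121 ± 35.9 (SD, n = 3) normalized counts per kilobase. Cebpz followed at 435 ± 11.5, Cebpg at 389 ± 14.8, Cebpd at 221 ± 9.86, Cebpe at 200.5 ± 18.3 and Cebpa at 7.96 ± 6.84. Cebpd and Cebpe overlapped in control, and the other neighbours in this order did not. In STING KO, Cebpb stood at 942 ± 85.3, Cebpz at 419 ± 6.17, Cebpg at 365 ± 22.8, Cebpe at 223 ± 30.2, Cebpd at 121 ± 6.75 and Cebpa at 7.83 ± 4.29. Cebpd was at rank 4 in control and at rank 5 in STING KO, below Cebpe and with no overlap between them. Cebpd made up 11.4% of the summed per-kilobase level of the 5 bZIP members in control and 7.28% in STING KO, while Cebpb made up 57.8% and 56.8%. These orders depend on transcript length. With the shorter RefSeq span of 2260 bases, against 3746 in GENCODE, Cebpd stood at 366 ± 16.3 and 200.03 ± 11.2 per kilobase. Its share of the 5 bZIP members was then 17.6% in control and 11.5% in STING KO. Its ranks were the same, but it overlapped Cebpg in control and Cebpe in STING KO.

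The genes closest to Cebpd in pattern were found by the root mean square difference, over the 6 libraries, of log2 values taken relative to the control mean. The search covered the 9567 tested genes that had a mean of at least 100 and did not carry Gm, Rik or similar names. The closest 5 were Nfkbiz, Relb, Pou2f2, Lif and Nfkbia, at distances of 0.0760, 0.134, 0.145, 0.161 and 0.167. Nfkbiz encodes the nuclear IkB protein IkB-zeta and stood at 1561, 1548 and 1589 in control, compared with 907, 882 and 864 in STING KO, or 56.5% of control. Relb, an NF-kB subunit, was at 52.0% of control, Pou2f2, an octamer-binding factor, at 58.3%, and Nfkbia, the inhibitor IkB-alpha, at 55.3%. These genes were chosen in the same libraries for closeness to Cebpd, so their lower values follow from the choice. All 5 were called lower by limma, which is therefore not separate evidence. Without control 3 and STING KO 1, which leaves 2 libraries a group, Pou2f2 (log2 difference -0.79, adjusted p = 0.0619), Nfkbia (-0.89, adjusted p = 0.0878) and Lif (-0.68, adjusted p = 0.801) were not called. The closest to Cebpb were Pheta2, Tmem176a, Gadd45b, Shmt1 and Ripk2, at distances of 0.0388 to 0.0660. Each of these, chosen in the same way, stood at 83.4% to 87.2% of control, and limma called none of them (adjusted p from 0.243 to 0.738).

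**Figure D4:**
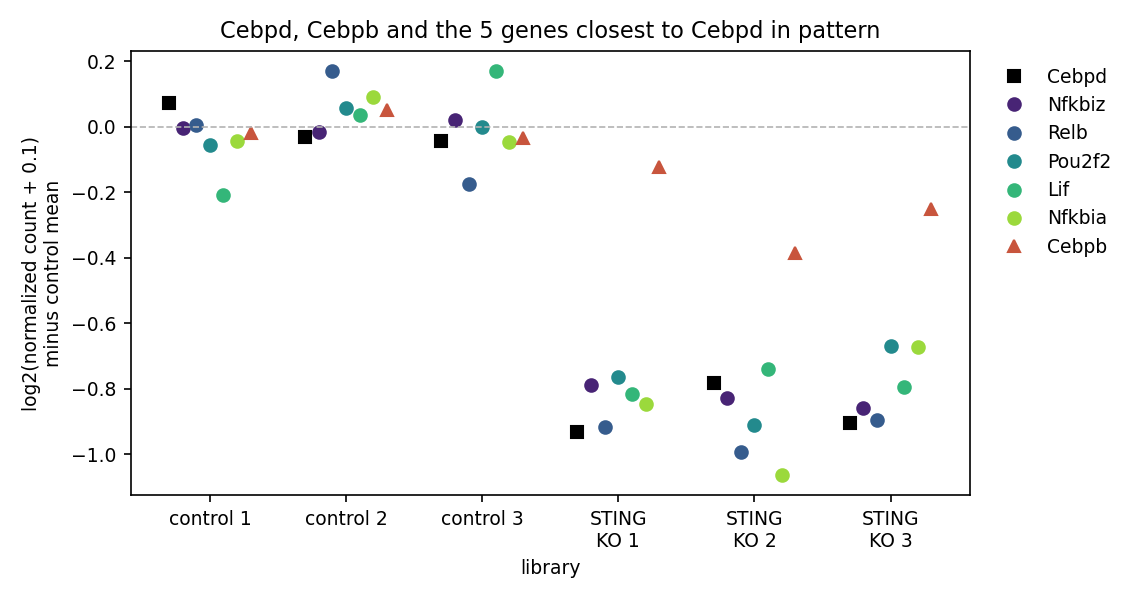
Level in each library relative to the control mean, on the log2(normalized count + 0.1) scale, for Cebpd, Cebpb and the 5 genes closest to Cebpd. Cebpd and its 5 neighbours, chosen for closeness to it, lie together far below 0 in the STING KO libraries, and Cebpb lies between them and 0.

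Upstream of Cebpd in the textbook pathway stand the IL-6 family cytokines, their receptors and STAT3. All 16 genes of this list were tested, and 3 were called lower and 0 higher, against 0.258% of all tested genes lower and 0 higher. The number lower was 2 by limma-voom and 1 without control 3 and STING KO 1. Like the other lists here, it was drawn up with earlier results of these data known, so the count is not independent evidence. Il6 itself stood at 62.9, 51.9 and 57.6 in control, against 12.9, 10.95 and 11.05 in STING KO, and limma gave a log2 change of -2.30 ± 0.20 (SE) at an adjusted p of 0.000873. Osmr, the oncostatin M receptor, stood at 1230.0, 1219 and 1270 in control, compared with 770.0, 864 and 772 in STING KO. Its log2 fold change was -0.63 ± 0.06 (SE) at an adjusted p of 0.0019. It was -0.58 and not called when control 3 and STING KO 1 were left out (adjusted p = 0.138). Lif, a cytokine of the same family, stood at 124, 147 and 161 in control, against 81.2, 85.6 and 82.3 in STING KO. Its log2 fold change was -0.78 ± 0.12 (SE) at an adjusted p of 0.0359, and the call rested on single libraries. Without control 2, control 3, STING KO 1 or STING KO 2 its adjusted p was 0.121, 0.202, 0.220 or 0.0997, and without both control 3 and STING KO 1 it was 0.801. It was also not called by limma-voom (0.0556) or with no filter on low values.

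Within the same list, 6 of the 16 genes had all STING KO libraries below all control libraries, against 6.32% of all tested genes. Stat3, named after its values were seen, stood at 2534, 2398 and 2527 in control, compared with 1991, 2071 and 1886 in STING KO. Its log2 difference was -0.33 ± 0.05 (SE) with a limma adjusted p of 0.0554, while the authors' deposited table gives an adjusted p of 0.000705. Socs3, a feedback inhibitor of this pathway and also named after its values were seen, stood at 372 to 414 in control and 280.1 to 309 in STING KO (limma adjusted p = 0.158). The median log2 difference of the 16 genes was -0.09, where that of all tested genes was 0.00.

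The bZIP partners of the family include the CREB/ATF, CHOP and AP-1 proteins. Of 20 listed genes 16 were tested. Where limma called 0.258% of all tested genes lower, it called 1 of these lower. This was Junb, an AP-1 subunit, at 913, 915 and 926 in control, against 606, 583 and 556 in STING KO. Its log2 fold change was -0.66 ± 0.06 (SE) with an adjusted p of 0.0010. Without control 3 and STING KO 1 the log2 difference was -0.68 and the adjusted p 0.0513, so the call was lost with 2 libraries a group but the size was not smaller. Ddit3, which encodes CHOP, stood at 545 to 701 in control and 546 to 686 in STING KO, and Atf4 at 9266 to 9733 and 9298 to 9877. Both overlapped between groups.

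Downstream, a list of 30 inflammatory genes linked to C/EBP beta and delta was described, many of which NF-kB is also known to control. It was drawn up with earlier results of these data known, so its direction is not independent evidence. Of its 17 tested genes limma called 9 lower and 0 higher, against 0.258% of all tested genes lower and 0 higher. The 9 include Csf3, which passed the filter on low values through the control libraries only. Its place in this count and in the median is therefore no support for the direction. The median log2 difference of the list was -1.13, and that of all tested genes was -0.0025. Among the 6 largest changes were the chemokines Cxcl1 (371 ± 27.4 to 18.2 ± 4.98, log2 fold change -4.37), Ccl2 (2356 ± 144 to 273 ± 14.4, log2 fold change -3.11) and Ccl7 (700.2 ± 31.1 to 119 ± 1.56, log2 fold change -2.55). Il6 is in this list too, and Zc3h12a, which encodes the RNase regnase-1, fell by 1.93 on the log2 scale. Csf3, which encodes the cytokine G-CSF, stood at 25.0, 20.9 and 21.9 in control, compared with 0.990, 0.996 and 1.004 in STING KO, a log2 fold change of -4.37. In steps of the smallest value this is 68 against 3 in all, a ratio of 22.7 with a 95% counting interval of 7.43 to 113 if each step is 1 read. Csf3 was not called without control 1 (adjusted p = 0.0630). Cp and Slpi, called but outside the 6 largest changes, were named after their values were seen. Without control 3 and STING KO 1 their log2 differences were -0.48 and -1.10, and neither was called (limma adjusted p = 0.295 and 0.366). Cp was called in 11 of 15 alternatives and Slpi in 6 of 14. Over 10 alternatives the number of list genes called lower ran from 6, without control 1, to 11.

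**Figure D5:**
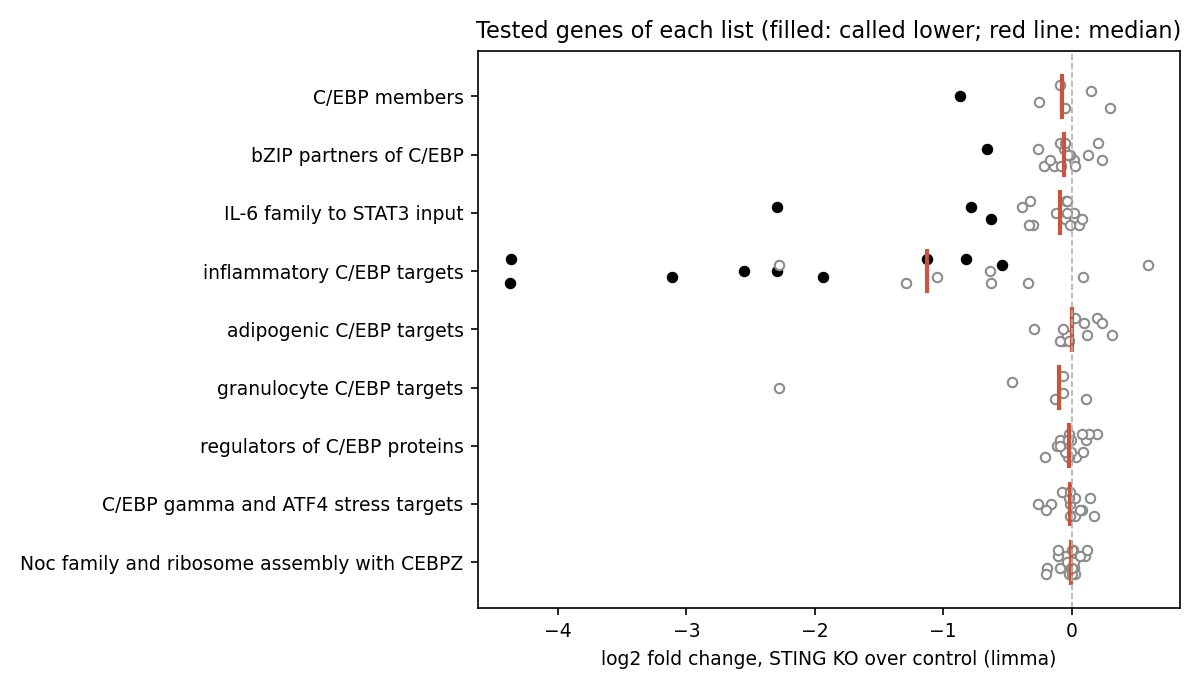
Log2 fold change of each tested gene, by list, with genes called lower by limma marked. The called genes of the inflammatory list extend down to -4.37, and the adipogenic, regulator, stress and ribosome lists have none called.

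In lists for other settings in which C/EBP proteins are known to act, limma called no gene. Over all tested genes it called 0.258% lower and 0 higher, and 3.18% were lower at an unadjusted p of 0.05. For lists this short, here and in the next paragraph, 0 called is near that share and sets them apart in no way. Of the 12 tested adipogenic genes limma called 0, as did limma-voom and the authors' deposited test. At an unadjusted p of 0.05, 2 were higher and 0 lower. Slc2a4, the insulin-responsive glucose transporter, was at 107, 121 and 109 in control, against 142, 132 and 144 in STING KO (log2 difference 0.31, limma adjusted p = 0.712). Of the 6 tested granulocyte genes limma called 0, limma-voom 1 and the authors' deposited test 0, with 2 lower at an unadjusted p of 0.05. The gene with the smallest p was Lcn2, the iron-binding lipocalin 2, which is also in the inflammatory list. It stood at 295, 319 and 347 in control, compared with 146, 46.8 and 41.2 in STING KO, a log2 difference of -2.28 ± 0.39 (SE, limma adjusted p = 0.0721). STING KO 1, 1 of the libraries with hepatocyte transcripts, had the highest STING KO value.

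Regulators of C/EBP proteins, such as the translation and ubiquitin factors that act on them, had 0 of 20 tested genes called by limma, limma-voom or the authors' deposited test, and 0 at an unadjusted p of 0.05. The smallest p was that of Eif4ebp1, a translation repressor (log2 difference 0.20 ± 0.09, SE, limma adjusted p = 0.738). Of 15 tested stress genes of ATF4 and C/EBP gamma, 0 were called by any of these tests, with 2 lower and 1 higher at an unadjusted p of 0.05. The smallest p was that of Nupr1, a stress-induced gene, with a log2 difference of 0.17. Of 22 tested genes of the Noc family and ribosome assembly, where Cebpz belongs, 0 were called by any of these tests, with 2 lower at an unadjusted p of 0.05. Rrp1b, a ribosome biogenesis factor, had the smallest p, at a log2 difference of -0.20 ± 0.06 (SE, limma adjusted p = 0.675).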

How the data were processed

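Polyadenylated RNA from 3 control and 3 STING KO libraries of L929 cells was sequenced. The deposited gene table holds, per the file headers, normalized count signal per library and the authors' log2 fold change, Wald score and p-value. Named in the submitters' processing notes, without roles, are RSEM 1.2.12, DESeq2 1.4.5, HISAT2 2.0.4 and Bowtie2 2.2.5, with GRCm38 and mm10 as builds. Neither the annotation nor the strandedness of counting is stated in those notes. The table has 27821 rows for 27507 identifiers, and the first row of each identifier was used, which left out 314 repeats. In every library 100% of the values were whole multiples of 1 step (tolerance 0.01), the step lying near 1. A count test on reads worked back from them was planned and not run, because a step near 1 was not taken to show that each step is 1 read. limma-voom was run in its place. The table's STING gene is listed as Tmem173, and Rfwd2, an older symbol of Cop1, was counted once.

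Groups were compared on log2(normalized count + 0.1), over the 12408 genes with at least 10 in at least 3 libraries. The test was that of limma (version 3.58.1, R version 4.3.3) with a variance trend. A Benjamini-Hochberg adjusted p of 0.05 or less was called. The added 0.1 shrinks the log2 change of low genes. For low genes with wide scatter, mean log2 values can also depart from the change of the mean in either direction. Cebpa, with a mean at 98.3% of control, had a log2 difference of 0.30 by limma and -0.02 in the authors' deposited table. Ratios of members were tested by exact permutation. Alternatives left out each library, left out both libraries with hepatocyte transcripts (known from earlier results), or changed the pseudocount, filter, scaling or tool. The alternatives for the gene lists, for named genes other than members and for transcript length were chosen after seeing the data. Whether replicates were separate cultures is not stated, and p-values therefore measure only the spread between these libraries, which may be technical. Their number, 3 per group, limits the precision. The count intervals cover counting error only. Gene positions and basic regions are from GENCODE M21 (GRCm38).

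Genes were named by a rule. It took the members, Sting1, the called genes of each list (6 with the largest change where there were more), the gene with the smallest p in a list with none called, and the leading markers. It also took the 5 genes closest to Cebpd and to Cebpb. Members and lists were chosen with earlier results of these data known.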

Additional observations from a re-analysis of the deposited data

How the results depend on the processing

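Cebpd kept its direction and its call in all 15 alternatives, with log2 fold changes from -0.92 to -0.84. Cebpb, Cebpe, Cebpg and Cebpz kept their signs and were called in none. Cebpa changed sign, from -0.62 to 1.03, and was never called. It had no value under the stricter filter on low values. Of 81 alternative ratio values, that of Cebpb over Cebpa without control 2 (0.39) changed sign, and no permutation of 3 against 3 libraries can pass 0.05. Of 32 genes lower in STING KO, leaving out 1 library gave 21 (without control 1) to 35, and 0 to 2 genes higher. Without control 3 and STING KO 1 there were 13 lower, 12 of them among the 32. The bZIP partner list then had 0 called and the IL-6 list 1. The authors' deposited test called 6 genes higher. In a check of pairing, same-numbered libraries correlated at -0.183, -0.180 and -0.488, which are not correlations of overall level. These 3 values gave no sign that replicate numbers pair the libraries, but they are too few to settle it. Control 3 and STING KO 1, the libraries with hepatocyte transcripts, were each other's best match in this check. With replicate number as a block, 18 genes were lower, all 18 among the 32, and Cebpd was called (adjusted p = 0.0139). Of the 222 alternative values of the other named genes 25 lost the call and 0 reversed. The planned count tests on recovered reads were not run. Scatter of 3 libraries limits Cebpa, with 3.99 to 39.7 normalized counts, most.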

Other observations

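Some acute-phase genes that C/EBP proteins are known to drive in liver followed the libraries with hepatocyte transcripts. They were named after their values were seen. Hp, which encodes haptoglobin, stood at 34.9, 17.0 and 169.9 normalized counts in control, against 209.8, 33.9 and 17.1 in STING KO. C3, the complement component, stood at 143, 108 and 585 in control, compared with 427, 110 and 95.4 in STING KO. Orm1, which encodes an acid glycoprotein, stood at 10.98, 3.99 and 27.8 in control, against 41.6, 0.996 and 3.01 in STING KO. For all 3 genes control 3 and STING KO 1 were the highest libraries and the groups overlapped. Other genes of the same inflammatory list did not follow these libraries. Saa3 was highest in STING KO 3, at 36.2, and Cp was at 819 in STING KO 1 and 832 in STING KO 2. Fabp4, a lipid-binding protein of adipocytes, was at 5886, 6517 and 6079 in control, compared with 6854, 6677 and 7605 in STING KO, without overlap (limma adjusted p = 0.712), while Adipoq was at 3.01 or less in every library.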
